A study of Mus musculus with 12 samples.

Results

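The genes described here are 36 genes of cholesterol synthesis, uptake, storage and efflux and of the SREBP system, measured in E14.5 fetal mouse testes. They were taken by symbol from a list of enzymes and regulators drawn up by function, with earlier results of these data known, and all 36 were found among the 24470 genes of the count table. By role they are 8 enzymes of the mevalonate pathway, 12 enzymes of the sterol pathway, 5 regulators of SREBP, 4 genes of uptake and trafficking, 2 of storage and hydrolysis, 2 of efflux and 3 of fatty acid synthesis. Each library was made from the polyadenylated RNA of 1 pool of 3 testes, with 6 control pools of the genotype Nr2f2 f/f and 6 conditional knockout (cKO) pools of the genotype Wt1 CreER, Nr2f2 f/f. Both groups therefore carried the floxed Nr2f2 allele, and the dams of both received tamoxifen around the time at which the first fetal Leydig cells appear. NR2F2, also named COUP-TFII, is a nuclear receptor of the interstitial cells of the fetal testis. In this model Cre is expressed from Wt1, which is active in the progenitors of several somatic cell types, it acts only after tamoxifen, and the study describes its action as incomplete, so that cKO testes hold deleted and undeleted interstitial cells. The question for these genes was whether the expression of the cholesterol pathway differed between cKO and control testes.

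Cholesterol is built from acetyl-CoA. The mevalonate pathway makes the isoprenoid farnesyl diphosphate, and the sterol pathway turns it by way of squalene and lanosterol into cholesterol. When membrane sterol is low, the escort protein SCAP carries the membrane-bound transcription factors SREBP1 and SREBP2 to the Golgi, where they are cut and released to the nucleus, and they then raise the genes of synthesis and uptake. INSIG proteins hold SCAP back when sterol is plentiful, and oxysterols then act through LXR receptors to raise the efflux transporters ABCA1 and ABCG1. Fetal Leydig cells, the steroid-making cells of the interstitium, use cholesterol as the substrate of androgen synthesis. They draw it from synthesis, from lipoproteins taken up through the receptor SCARB1, and from esters stored in lipid droplets.

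Total counts ran from 7044531 to 39965574 in the control libraries and from 7322959 to 59404778 in the cKO libraries. No member of the list had fewer than 91 counts in any library, so all 36 passed the filter on low counts. The targeted gene Nr2f2 (Entrez Gene 11819, chr7:70351950-70366746) had 163, 176 and 186 CPM (counts scaled to a common library size with TMM factors) as its lowest, median and highest control values, and 50.2, 77.1 and 119 CPM in cKO pools. The groups did not overlap, and the log2 fold change was -1.21 (SE 0.16, adjusted p = 0.000548 by edgeR's quasi-likelihood test). Markers of Sertoli, germ, interstitial and fetal Leydig cells were detected in all 12 libraries. A pair of control libraries stood apart from the other controls. Control replicate 1 had 891 CPM of Xist, the RNA of the inactive X chromosome, and 47.2 CPM of the ovarian gene Foxl2. The cKO replicates 3, 5 and 6 had 304 to 507 CPM of Xist and 14.6 to 19.3 CPM of Foxl2, and the other 8 libraries 5.15 to 7.68 CPM of Xist and 0.230 to 1.30 CPM of Foxl2. The labels call all 12 pools testis, and whether these 4 pools held XX gonads was not tested. Control replicate 5 had low values for genes of high GC content, with a correlation of -0.47 across 15224 genes between GC content and its deviation from the other 5 controls. In the other libraries, each set against the rest of its group, this correlation ran from -0.20 in control replicate 6 to 0.32 in control replicate 3. Where a call of the list changed without control replicate 1 or 5, that fit is given beside it.

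Across the list, 6 of 36 genes passed an adjusted p of 0.05 in edgeR's quasi-likelihood test, and every fold change was small. Pmvk, Cyp51, Nsdhl, Hsd17b7 and Sc5d, all enzymes of cholesterol synthesis, were lower in cKO testes, and Abcg1, an efflux transporter, was higher. The 5 lower genes had 0.734 to 0.822 times their control level, and Abcg1 had 1.35 times its control level. Called genes made up 16.7% of the list and 8.13% of all 15572 genes tested (4.85% lower, 3.28% higher). At an unadjusted p under 0.05 there were 13, or 36.1% of the list against 25.2% of all genes tested. The 20 synthesis enzymes had a median log2 fold change of -0.20, with 16 of 20 under 0, while all genes tested had a median of 0.00297 with 49.4% under 0. The other roles had medians of 0.01 for SREBP regulators, 0.04 for uptake and trafficking, -0.17 for storage and hydrolysis, 0.28 for efflux and 0.01 for fatty acid enzymes. The plot of fold changes by role shows the synthesis enzymes lying mostly to the left of 0.

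**Figure D1:**
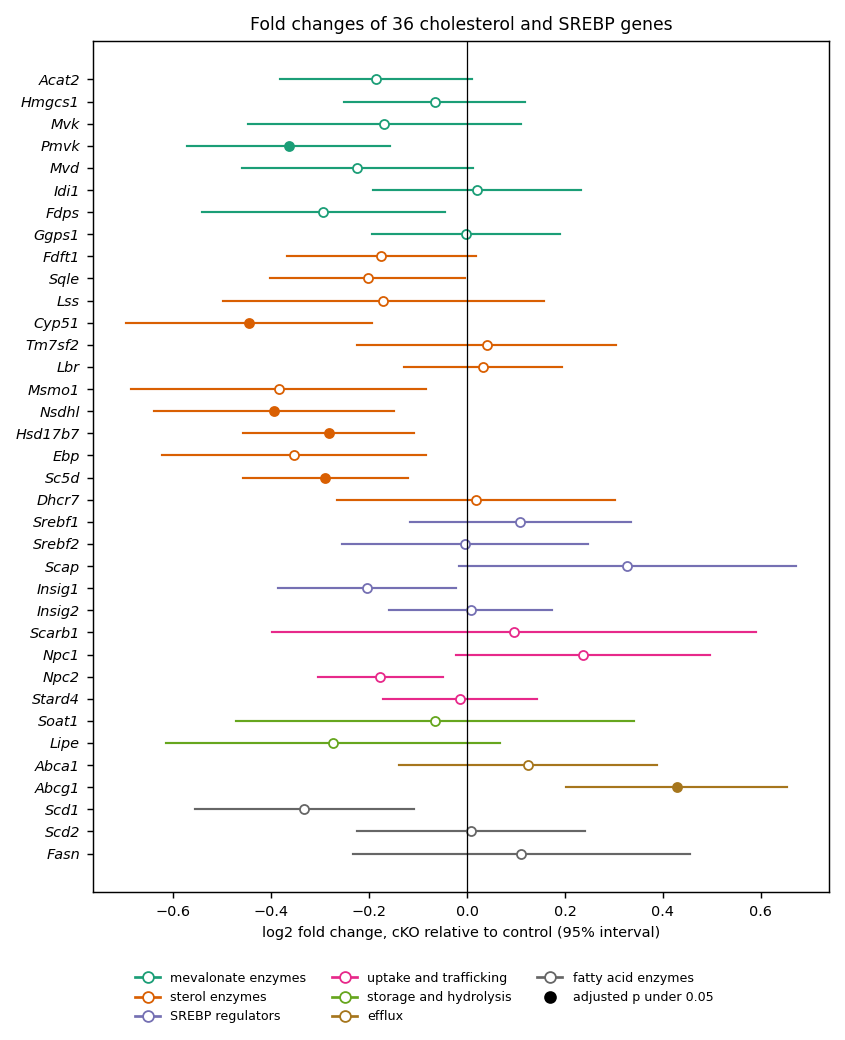
Log2 fold change of each of the 36 genes in cKO relative to control testes, with its 95% interval from edgeR, in blocks by role from mevalonate enzymes at the top to fatty acid enzymes at the bottom. Filled points passed an adjusted p of 0.05. Of the 20 synthesis enzymes 16 lie under 0, and the 6 filled points run from -0.45 in Cyp51 to 0.43 in Abcg1.

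The number of called genes depended on single libraries. Without control replicate 1, 17 of the 36 genes passed (14 lower, 3 higher), but so did 19.9% of all genes (10.5% lower, 9.44% higher). That fit still holds cKO replicates 3, 5 and 6, which also had high Xist. Without control replicate 5 only Abcg1 passed, while 7.61% of all genes did (4.28% lower, 3.33% higher), although 15 of the 36 had an unadjusted p under 0.05 (41.7%, against 23.1% of all genes). When any other library was left out, the lower genes numbered 2 without control replicate 3, cKO replicate 1 or cKO replicate 2, while 3.92%, 3.39% and 4.81% of all genes were called lower. They numbered 0 without control replicates 2, 4 or 6 or cKO replicates 3, 4, 5 or 6, while 3.19% to 3.45% of all genes were called lower. Abcg1 was not called without control replicate 6 or cKO replicates 1, 3 or 4. With the 4 libraries of high Xist left out, which keeps 5 controls and 3 cKO pools, 9 of the 36 passed (8 lower, 1 higher) and 7.08% of all genes (3.39% lower, 3.68% higher). DESeq2 called 8 (7 lower, 1 higher) and 11.6% of the genes it gave an adjusted p (6.27% lower, 5.28% higher). Limma-voom called Sc5d lower and Abcg1 higher, with Pmvk, Cyp51, Nsdhl and Hsd17b7 lost at log2 fold changes of -0.32, -0.41, -0.35 and -0.27 (adjusted p = 0.0512 to 0.0921), and 8.01% of all genes (4.59% lower, 3.42% higher). With the replicate block only Abcg1 was called, the 5 lower genes having log2 fold changes of -0.43 to -0.28 (edgeR adjusted p = 0.0610 to 0.104), and 5.98% of all genes (3.46% lower, 2.52% higher). The median over the synthesis enzymes moved less, from -0.27 without control replicate 1 to -0.16 without control replicate 2, and it was -0.30 without both control replicates 1 and 5. Of the other roles, the median of uptake and trafficking ran from -0.05 without control replicate 5 to 0.12 without control replicate 4, and that of storage and hydrolysis from -0.25 without control replicate 5 to -0.05 without control replicate 1. Fatty acid enzymes ran from -0.07 without control replicate 5 to 0.05 without cKO replicate 5, SREBP regulators from 0.00165 to 0.05 when cKO replicate 4 or control replicate 4 was left out, and efflux from 0.23 without control replicate 5 to 0.35 without control replicate 1.

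RNA of whole testes also changes with cell numbers, and in bulk samples fewer cells of a type and less RNA per cell cannot be told apart. By staining at the same stage, the study counted fewer fetal Leydig cells per area and fewer interstitial cells per testis in cKO testes. Of the 8 fetal Leydig cell markers 6 were lower in cKO testes and none was higher. Their summed level was 1973 to 3307 CPM in control pools and 1105 to 2108 CPM in cKO pools, and none of the 8 was at 0. Control replicate 1, at 1973 CPM, was the lowest of the controls and lay within the cKO range. Of the 5 interstitial markers 3 were lower, Nr2f2 among them, with sums of 1110 to 1417 CPM in control and 630.3 to 1139 CPM in cKO pools. Of 5 macrophage markers 2 were higher, with sums of 39.2 to 56.0 CPM in control and 55.2 to 66.4 CPM in cKO pools. No Sertoli (5), germ cell (4), liver (4) or ovarian and XX (5) marker passed the test. Their sums overlapped between the groups, and the last list ran from 14.7 to 1060.0 CPM in controls because control replicate 1 is among them. The liver sums were 6.10 to 52.9 CPM in control and 8.41 to 245 CPM in cKO pools, and cKO replicates 4 and 6 stood apart, with 130 and 62.9 CPM of Afp against 4.28 to 9.28 CPM in the other cKO pools. When either of these libraries was left out, none of the 36 genes was called lower. The same held without control replicates 2, 4, 5 or 6 or cKO replicates 3 or 5. The median log2 fold change of the synthesis enzymes was -0.19 without cKO replicate 4 and -0.20 without cKO replicate 6, against -0.20 in all 12 libraries. Of 4 endothelial markers 1 was lower, and of 4 adrenal markers 1 was higher. The part of these markers in the results for the cholesterol genes was not tested.

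Promoters of the synthesis enzymes are known to carry sites for SREBP beside sites for its partners NF-Y and Sp1. RefSeq promoter sequences (build GRCm38.p6, 250 bases before to 50 bases after the start) were matched by symbol for 27 of the 36 genes, among them the 5 genes called lower. Those 5 are printed here because the calls of the list rest on them, and Hmgcs1 because it alone held the strict sterol regulatory element TCACNCCAC. Capitals mark that element and the NF-Y letters CCAAT, which read ATTGG on the other strand.
Hmgcs1, chr13:119690101-119690400, plus strand: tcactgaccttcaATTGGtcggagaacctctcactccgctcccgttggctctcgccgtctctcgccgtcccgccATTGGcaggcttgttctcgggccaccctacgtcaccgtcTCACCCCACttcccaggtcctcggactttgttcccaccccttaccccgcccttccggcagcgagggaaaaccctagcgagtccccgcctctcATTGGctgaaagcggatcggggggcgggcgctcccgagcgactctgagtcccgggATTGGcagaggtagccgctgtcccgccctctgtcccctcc
Pmvk, chr3:89454291-89454590, plus strand: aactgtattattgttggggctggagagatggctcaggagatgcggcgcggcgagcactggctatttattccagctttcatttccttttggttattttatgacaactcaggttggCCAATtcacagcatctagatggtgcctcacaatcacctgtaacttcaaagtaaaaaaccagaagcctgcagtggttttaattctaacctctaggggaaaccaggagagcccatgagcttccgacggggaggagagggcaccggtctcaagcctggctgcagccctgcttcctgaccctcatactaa
Cyp51, chr5:4104648-4104947, minus strand: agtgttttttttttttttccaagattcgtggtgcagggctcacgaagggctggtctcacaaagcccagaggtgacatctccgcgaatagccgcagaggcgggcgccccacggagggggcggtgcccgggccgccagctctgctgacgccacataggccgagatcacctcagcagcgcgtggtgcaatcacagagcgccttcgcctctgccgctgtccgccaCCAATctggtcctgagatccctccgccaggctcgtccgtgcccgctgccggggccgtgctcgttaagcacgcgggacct
Nsdhl, chrX:72918271-72918570, plus strand: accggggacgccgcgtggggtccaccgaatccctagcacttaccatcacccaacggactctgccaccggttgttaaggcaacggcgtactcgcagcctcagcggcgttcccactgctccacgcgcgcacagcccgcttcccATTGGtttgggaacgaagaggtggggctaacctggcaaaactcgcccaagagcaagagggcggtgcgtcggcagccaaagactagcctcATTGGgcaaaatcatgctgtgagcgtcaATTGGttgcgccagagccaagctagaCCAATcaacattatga
Hsd17b7, chr1:169969156-169969455, minus strand: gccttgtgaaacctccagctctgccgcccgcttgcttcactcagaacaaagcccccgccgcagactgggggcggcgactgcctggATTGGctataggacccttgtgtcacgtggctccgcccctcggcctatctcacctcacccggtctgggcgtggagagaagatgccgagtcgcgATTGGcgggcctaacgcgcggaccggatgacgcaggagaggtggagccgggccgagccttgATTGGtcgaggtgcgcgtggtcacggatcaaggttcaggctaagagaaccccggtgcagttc
Sc5d, chr9:42264251-42264550, minus strand: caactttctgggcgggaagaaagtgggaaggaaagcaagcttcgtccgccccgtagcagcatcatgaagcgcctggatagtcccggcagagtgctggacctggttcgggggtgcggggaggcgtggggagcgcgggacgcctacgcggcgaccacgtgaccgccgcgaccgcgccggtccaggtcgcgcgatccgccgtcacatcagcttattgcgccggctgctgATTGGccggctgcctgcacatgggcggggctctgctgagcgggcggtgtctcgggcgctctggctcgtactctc

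Each of the 6 windows held CCAAT on at least 1 strand, with 4 copies in Hmgcs1 and in Nsdhl, 3 in Hsd17b7 and 1 in each of the others. Over the list, 23 of 27 genes with a promoter (85.2%) had CCAAT in a window, as had 16 of 17 synthesis enzymes (94.1%), against 41.1% of all 27025 genes with a RefSeq promoter sequence and 42.8% of those tested. Acat2 was the synthesis enzyme without it. The Sp1 letters GGGCGG, searched on both strands, were in 24 of 27 (88.9%), against 38.2% of all promoters and 66.2% of those of tested genes, and Pmvk was the printed promoter without them. TCACNCCAC was found in 1 of 27, 137 bases before the start of Hmgcs1, and in 1.44% of all promoters. CAAGGTCA, the letters of the NR5A1 monomer site, were in 1 of 27, Dhcr7, and in 1.76% of all. A direct repeat of AGGTCA spaced by 1 base, of the kind that COUP-TF receptors can bind, was in none of the 27 and in 0.0481% of all. At so small a share none is expected among 27 genes, so its absence cannot bear on binding by NR2F2. The study measured that binding by ChIP-seq, which was not examined here. In the Hmgcs1 promoter the matches to TCACNCCAC, CCAAT and GGGCGG do not overlap each other. Hmgcs1 differed by -0.07 on the log2 scale and was not called, and a match of letters is not a measured site.

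Among the 8 mevalonate enzymes 1 was called lower (12.5%, against 4.85% of all genes), none was called higher, and the median log2 fold change was -0.18 with 7 of 8 under 0. Pmvk (Entrez Gene 68603, chr3:89454541-89469009), phosphomevalonate kinase, had 17.4, 22.6 and 28.3 CPM as its lowest, median and highest control values and 16.4, 17.4 and 18.9 CPM in cKO pools. Control replicate 1 held the low control value and lay among the cKO pools, while the other 5 controls lay above all of them. The means were 22.8 ± 3.51 and 17.6 ± 0.824 CPM (SD, n = 6 pools each), and the log2 fold change was -0.36 (SE 0.10, edgeR adjusted p = 0.0331). It was -0.43 without control replicate 1 (edgeR adjusted p = 0.00271) and -0.34 without control replicate 5 (edgeR adjusted p = 0.0560).

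Fdps (Entrez Gene 110196, chr3:89093588-89101967), which makes farnesyl diphosphate, had the highest level per length of the mevalonate enzymes, at 132 ± 26.6 CPM per kb of exon in control and 108 ± 3.36 in cKO pools (SD, n = 6 each). Its lowest, median and highest values were 127, 199 and 240.3 CPM in control pools and 152, 156 and 165 CPM in cKO pools. The cKO pools were tightly grouped and lay inside the wide control range, which had control replicate 1 at its bottom and control replicate 5 at its top. With a log2 fold change of -0.29 (SE 0.12) Fdps did not pass the test (edgeR adjusted p = 0.133), but it did without control replicate 1, at -0.39 (edgeR adjusted p = 0.00407). Without control replicate 5 the change of Fdps was -0.21 (edgeR adjusted p = 0.249). Hmgcs1, the synthase at the entry to the pathway, was second in level per length with 109.7 ± 14.6 CPM per kb in control and 105 ± 7.07 in cKO pools, a difference of -0.07 on the log2 scale (95% interval -0.25 to 0.12). Fdps and Hmgcs1 stood above the other 6 enzymes, which lay between 8.82 and 26.4 CPM per kb in control pools. Acat2, the acetyl-CoA thiolase, had a log2 fold change of -0.19, Mvk (mevalonate kinase) of -0.17 and Mvd (the decarboxylase) of -0.22. Idi1, the isomerase, and Ggps1, which leads off to geranylgeranyl diphosphate, were near 0 at 0.02 and -0.00189. None of these 5 passed the test, and their SEs were 0.09 to 0.13. Acat2 passed without control replicate 1, at -0.26 (edgeR adjusted p = 0.0129), and Mvk was -0.26 without control replicate 5 (edgeR adjusted p = 0.0943).

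**Figure D2:**
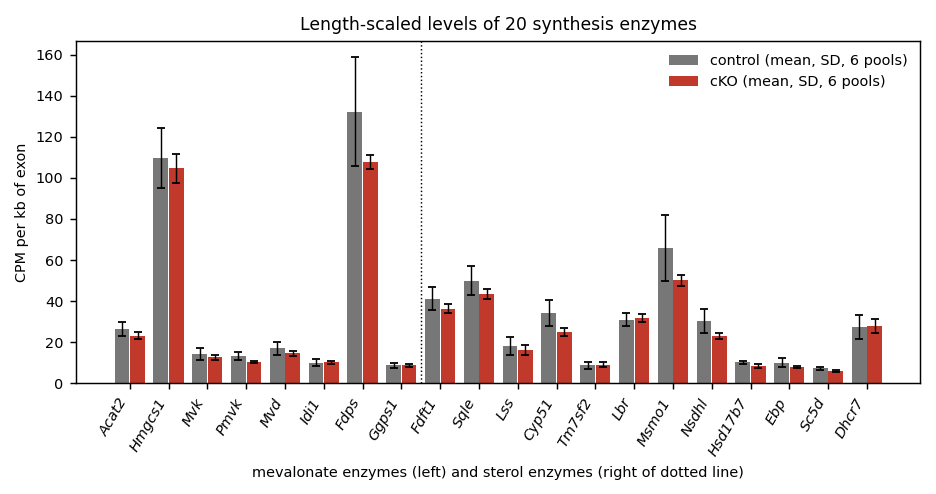
Mean level of the 20 synthesis enzymes in CPM per kb of exon in control (grey) and cKO (red) testes, in pathway order, with SD over 6 pools. Fdps, Hmgcs1 and Msmo1 are the highest, and the control SD bars are longer than the cKO bars for most enzymes.

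The 12 sterol enzymes had a median log2 fold change of -0.24, with 9 of 12 under 0, and 4 were called lower (33.3%, against 4.85% of all genes). Cyp51 (Entrez Gene 13121, chr5:4080674-4104697), the lanosterol demethylase, had the largest log2 fold change of the list in the edgeR fit of all 12 libraries, but in the 8 libraries with low Xist that of Abcg1 was larger (0.53, against -0.48 in Cyp51), as it was with a replicate block (0.435 and -0.428). Its lowest, median and highest values were 88.1, 143 and 154 CPM in control pools, against 83.6, 99.9 and 107 CPM in the cKO pools, with means of 135 ± 24.8 and 98.5 ± 8.29 CPM (SD, n = 6 each). The other 5 controls lay above all cKO pools, and control replicate 1, at 88.1 CPM, lay among the cKO pools. The log2 fold change of Cyp51 was -0.45 (SE 0.12, edgeR adjusted p = 0.0311). Without control replicate 1 it was -0.55 (edgeR adjusted p = 0.000452), and without control replicate 5 it was -0.40 (edgeR adjusted p = 0.0611).

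Nsdhl (Entrez Gene 18194, chrX:72918521-72958528) acts in the removal of the methyl groups at carbon 4 and is X-linked. Control pools had 44.6, 66.6 and 82.6 CPM of it as lowest, median and highest values, and cKO pools 43.7, 50.8 and 52.6 CPM. The cKO pools were close to each other, and again control replicate 1 alone among the controls lay in their range. The fall of -0.39 on the log2 scale (SE 0.11, edgeR adjusted p = 0.0483) was just past the threshold. It was -0.49 without control replicate 1 (edgeR adjusted p = 0.00123) and -0.31 without control replicate 5 (edgeR adjusted p = 0.0915).

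Hsd17b7 (Entrez Gene 15490, chr1:169949537-169969205) reduces the 3-keto group in the same demethylation steps. It had 47.8, 51.7 and 55.4 CPM in control pools, against 33.5, 43.7 and 48.2 CPM in the cKO pools, so that 5 of 6 cKO pools lay under every control and cKO replicate 1, at 48.2 CPM, was just above the lowest control, replicate 1. Its control SD, 3.01 CPM, was smaller than its cKO SD of 5.13 CPM, and it was the 1 gene of the 36 with the larger spread in cKO pools on the log2 scale. The log2 fold change was -0.28 (SE 0.08, edgeR adjusted p = 0.0472). It was -0.31 without control replicate 1 (edgeR adjusted p = 0.0235) and -0.28 without control replicate 5 (edgeR adjusted p = 0.0571). In the 8 libraries with low Xist it was -0.21 (edgeR adjusted p = 0.117), the libraries with high Xist including the 2 lowest cKO pools, replicates 5 (33.5 CPM) and 6 (39.3 CPM).

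Sc5d (Entrez Gene 235293, chr9:42254177-42264300), the lathosterol desaturase, was the called gene whose groups did not overlap. From lowest through median to highest, its values were 31.1, 36.3 and 39.9 CPM in control pools and 26.4, 29.7 and 30.6 CPM in cKO pools, so the lowest control and the highest cKO pool were close. The means were 35.8 ± 3.96 and 29.3 ± 1.54 CPM (SD, n = 6 each), with a log2 fold change of -0.29 (SE 0.08, edgeR adjusted p = 0.0366). Without control replicate 5 the change was -0.25 (edgeR adjusted p = 0.0618). In the list, Sc5d and Npc2 had all cKO pools under all control pools and no gene had them all above. Over all genes tested 5.52% had no overlap, 3.13% with lower and 2.39% with higher cKO pools.

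**Figure D3:**
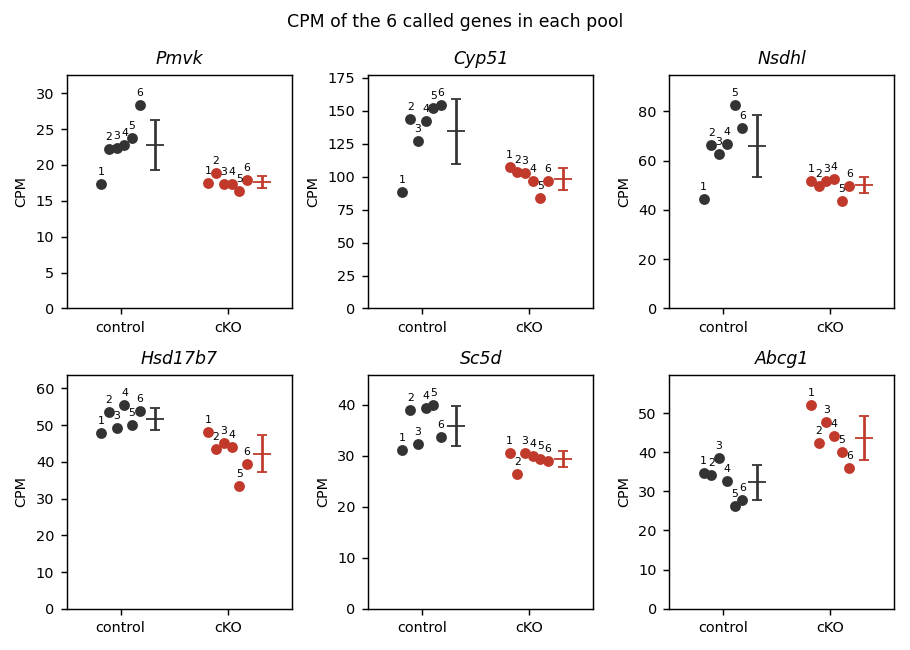
CPM of the 6 called genes in each pool, control in black and cKO in red, numbered by replicate, with the mean and SD of 6 pools beside each group. Control replicate 1 lies among the cKO pools for Pmvk, Cyp51 and Nsdhl and just under the highest cKO pool for Hsd17b7, and the groups are separate only in Sc5d.

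Of the sterol enzymes that were not called, Msmo1 and Ebp had the largest differences. Msmo1 (Entrez Gene 66234, chr8:64718145-64733578), the methyl sterol monooxygenase that works beside Nsdhl and Hsd17b7, had the highest level per length of the sterol enzymes, 65.8 ± 16.2 CPM per kb in control and 50.2 ± 2.67 in cKO pools (SD, n = 6 each). Its lowest, median and highest values were 79.2, 136 and 177 CPM in control pools and 94.4, 103 and 111 CPM in cKO pools. Control replicate 1 was under every cKO pool and the other 5 controls were above every cKO pool. The log2 fold change was -0.39 (SE 0.14, edgeR adjusted p = 0.110), and without control replicate 1 it was -0.50 (edgeR adjusted p = 0.00231). It was -0.28 without control replicate 5 (edgeR adjusted p = 0.213). Ebp (Entrez Gene 13595, chrX:8185329-8193512), the X-linked sterol isomerase, had 12.2, 18.3 and 22.6 CPM in control pools, against 12.3, 13.5 and 15.3 CPM in the cKO pools. Control replicate 1 lay under every cKO pool, control replicate 3 in the cKO range and the other 4 controls above it. Its change of -0.35 (SE 0.13, edgeR adjusted p = 0.102) was -0.44 without control replicate 1 (edgeR adjusted p = 0.00969) and -0.26 without control replicate 5 (edgeR adjusted p = 0.187).

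The enzymes at the entry to the sterol pathway had smaller differences. Squalene synthase Fdft1 had a log2 fold change of -0.18 (95% interval -0.37 to 0.02), squalene epoxidase Sqle of -0.20 (-0.40 to -0.00) and lanosterol synthase Lss of -0.17 (-0.50 to 0.16). Lss was -0.27 without control replicate 5. Fdft1 and Sqle passed without control replicate 1 (-0.25 and -0.29, edgeR adjusted p = 0.0176 and 0.00503), and Lss did not whichever library was left out. Without control replicate 5 Fdft1 and Sqle were at -0.14 and -0.19 (edgeR adjusted p = 0.381 and 0.262). The sterol reductases were near 0. Tm7sf2, of which 9 bases overlap Vps51 on the same strand, had a log2 fold change of 0.04 (-0.22 to 0.31), Lbr, its counterpart in the nuclear envelope, of 0.03 (-0.13 to 0.19) and Dhcr7, the 7-dehydrocholesterol reductase, of 0.02 (-0.27 to 0.30). The sign of all 3 differed between settings, down to -0.07, -0.02 and -0.12 at the lowest.

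None of the 5 SREBP regulators passed the edgeR test or DESeq2, at a background of 8.13% in edgeR, and 1, Insig1, had an unadjusted p under 0.05. Srebf2 (Entrez Gene 20788, chr15:82147269-82204960), which encodes the SREBP of cholesterol synthesis, had the highest level per length among them, 51.3 ± 9.24 CPM per kb in control and 51.1 ± 5.37 in cKO pools (SD, n = 6 each). Its lowest, median and highest values were 175, 265 and 313 CPM in control pools, against 227, 259 and 295 CPM in the cKO pools. The groups overlapped throughout, and the difference was -0.00519 on the log2 scale (95% interval -0.26 to 0.25). Srebf1, which encodes the SREBP tied mainly to fatty acid genes, differed by 0.11 (-0.12 to 0.33). These values are of mRNA, and cutting of the proteins was not measured.

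Scap (Entrez Gene 235623, chr9:110333288-110384949), the escort of both SREBPs, had 77.2, 155 and 184 CPM in control pools, against 163, 187 and 203 CPM in the cKO pools. In 4 of 6 cKO pools it lay above every control, and control replicate 5 had the low control value. Scap was higher in cKO pools by 0.33 (SE 0.16), which did not pass the test (edgeR adjusted p = 0.217). The difference was 0.20 without control replicate 5 (edgeR adjusted p = 0.206) and 0.40 without control replicate 1 (edgeR adjusted p = 0.0905). Of the INSIG genes, Insig1, itself a target of SREBP, had 123 ± 14.9 CPM in control pools, against 106 ± 7.21 CPM in the cKO pools (SD, n = 6 each), a log2 fold change of -0.20 (-0.39 to -0.02) and an edgeR adjusted p of 0.152. It was -0.27 without control replicate 1 (edgeR adjusted p = 0.00864). Insig2 differed by 0.01 (-0.16 to 0.17).

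Of the 4 genes of uptake and trafficking none passed the edgeR test, and 1, Npc2, had an unadjusted p under 0.05 and was called by DESeq2. Scarb1 (Entrez Gene 20778, chr5:125277087-125341094), the HDL receptor of steroid-making cells, had the highest level per length, 91.5 ± 31.2 CPM per kb in control and 97.8 ± 24.2 in cKO pools (SD, n = 6 each), and the largest SD of log2 CPM between controls in the list, 0.58. Lowest, median and highest values were 103, 231 and 341 CPM in control pools and 169, 267 and 314 CPM in cKO pools, with control replicate 5 at the bottom and control replicate 4 at the top. The difference of 0.10 had an interval from -0.40 to 0.59 on the log2 scale, and it was -0.05 without control replicate 5 and 0.39 in the 8 libraries with low Xist (edgeR adjusted p = 0.339). Npc1 and Npc2 hand cholesterol out of late endosomes. Npc1 was higher in cKO pools by 0.24 (SE 0.12, edgeR adjusted p = 0.236), by 0.33 without control replicate 1 (edgeR adjusted p = 0.0460) and by 0.15 without control replicate 5 (edgeR adjusted p = 0.337). Npc2 had 129, 133 and 152 CPM in control pools, against 111, 119.6 and 126 CPM in the cKO pools, and the groups did not overlap, but its log2 fold change of -0.18 (SE 0.06) missed the threshold (edgeR adjusted p = 0.0828). The DESeq2 adjusted p of Npc2 was 0.0378, and edgeR called it without control replicate 1 (adjusted p = 0.0452). Stard4, a soluble sterol carrier, differed by -0.01 (-0.17 to 0.14).

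Neither gene of storage and hydrolysis passed the edgeR test or DESeq2, and neither had an unadjusted p under 0.05. Soat1 (Entrez Gene 20652, chr1:156428108-156474328), which esterifies cholesterol for storage, had 125, 135 and 279 CPM as lowest, median and highest control values and 123, 149.8 and 192 CPM in cKO pools. Control replicate 1 was far above the other 5 controls, which lay between 125 and 147 CPM. Its level per length was 18.9 ± 7.11 CPM per kb in control and 18.1 ± 3.29 in cKO pools (SD, n = 6 each). Soat1 differed by -0.07 (-0.47 to 0.34), and by 0.17 in the other direction without control replicate 1 (edgeR adjusted p = 0.268). Lipe, which encodes hormone-sensitive lipase and frees cholesterol from its esters, was the lowest of the 36 genes per length, at 3.88 ± 0.999 CPM per kb in control and 3.23 ± 0.455 in cKO pools, with a difference of -0.27 (-0.61 to 0.07).

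The 2 efflux transporters had a median of 0.28, and 1 of them was called higher, as were 3.28% of all genes. Abcg1 (Entrez Gene 11307, chr17:31057694-31117984), which passes cholesterol to HDL and is known as an LXR target, had 26.2, 33.4 and 38.4 CPM in control pools and 35.97, 43.2 and 52.0 CPM in the cKO group. In 5 of 6 cKO pools it lay above every control, and cKO replicate 6, at 35.97 CPM, lay inside the control range. The means were 32.3 ± 4.52 and 43.7 ± 5.64 CPM (SD, n = 6 each), with a log2 fold change of 0.43 (SE 0.11, edgeR adjusted p = 0.0236). It was also called in the 8 libraries with low Xist. Without control replicate 6 or cKO replicates 1, 3 or 4 it was not called, with adjusted p-values of up to 0.0578 in edgeR. Abcg1 is known in macrophages too, and of the macrophage markers Csf1r and Cx3cr1 were higher in cKO testes by 0.44 and 0.92 on the log2 scale (edgeR adjusted p = 0.00749 and 0.00185). Their part in the level of Abcg1 was not tested.

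Abca1 (Entrez Gene 11303, chr4:53030789-53159895), the transporter to lipid-poor apolipoproteins, had the higher level per length of the efflux pair, 16.4 ± 3.72 CPM per kb in control and 17.9 ± 1.86 in cKO pools (SD, n = 6 each). The lowest, median and highest values of Abca1 were 137, 160.3 and 244 CPM in control pools, against 169, 178 and 219 CPM in the cKO pools. Control replicate 1 was above every cKO pool and the other 5 controls were under every cKO pool. The difference was 0.12 (SE 0.12, edgeR adjusted p = 0.547) with all 12 libraries and 0.26 without control replicate 1 (edgeR adjusted p = 0.0353).

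The 3 fatty acid enzymes, which are targets of SREBP1, did not pass the edgeR test, and 1, Scd1, had an unadjusted p under 0.05. Scd2 (Entrez Gene 20250, chr19:44293676-44306864), a stearoyl-CoA desaturase, had the highest level per length of the list, 222 ± 35.0 CPM per kb in control and 223 ± 24.1 in cKO pools (SD, n = 6 each). Its values were 851, 1269.9 and 1372 CPM in control pools, against 1039.9, 1262 and 1383 CPM in the cKO pools, and they overlapped, with a difference of 0.01 (-0.22 to 0.24). Scd1 (Entrez Gene 20249, chr19:44394450-44407709), its paralog, was far less abundant, with 18.8, 25.9 and 28.3 CPM in control pools, against 17.4, 19.1 and 22.1 CPM in the cKO pools. The cKO pools lay under all controls other than replicate 1, and the log2 fold change of -0.33 (SE 0.10) did not pass the test (edgeR adjusted p = 0.0662). DESeq2 called Scd1 (adjusted p = 0.0394), as did edgeR without control replicate 1 (adjusted p = 0.00772) and in the 8 libraries with low Xist (adjusted p = 0.0164). Fasn, the fatty acid synthase, differed by 0.11 (-0.23 to 0.45).

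**Figure D4:**
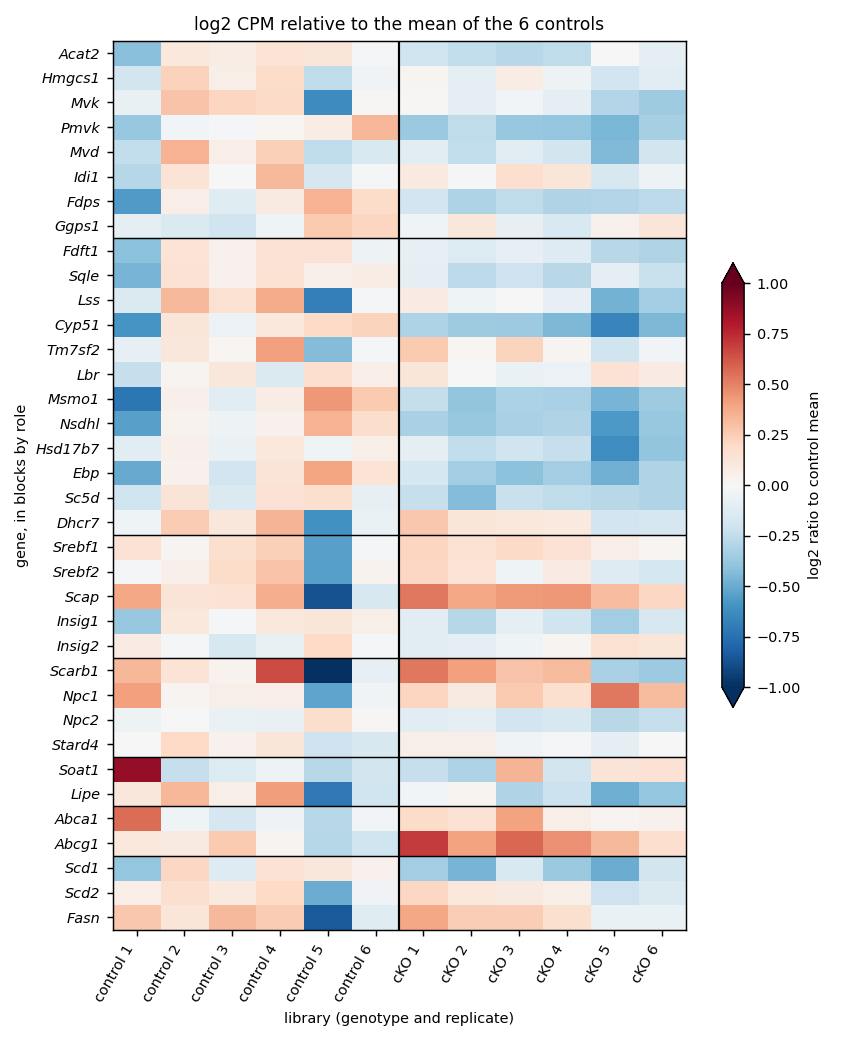
Log2 ratio of each gene's CPM in each of the 12 libraries to the mean log2 value of the 6 controls, with genes in blocks by role. Control replicate 1 is blue for nearly all synthesis enzymes, control replicate 5 is blue for Scap, Scarb1, Fasn and Lss, and the cKO columns are paler and more alike.

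The control pools varied more than the cKO pools. The SD of log2 CPM was larger among controls in 35 of 36 genes, with medians of 0.27 and 0.12. With control replicates 1 and 5 left out, which was done after the data had been seen, the SD was larger among controls in 18 of 36 genes, with medians of 0.12 in both groups. It was larger in 27 of 36 without replicate 1 alone and in 27 of 36 without replicate 5 alone. The heat map by library shows both columns. In control replicate 1 all 20 synthesis enzymes were under the mean of the other 5 controls, by 0.05 to 0.86 on the log2 scale, 13 of them were under each of those 5, and 11 lay within the cKO range. Of its other 16 genes 5 were under that mean, of which Insig1 and Scd1, both at -0.46, were under each of the other controls. The remaining 11 were above it, the highest being Soat1 at 1.06 and Abca1 at 0.67. Against the other 5 controls, all 6 cKO pools were lower in 12 genes, of which 9 were synthesis enzymes (Pmvk, Fdps, Fdft1, Sqle, Cyp51, Msmo1, Nsdhl, Hsd17b7 and Sc5d) and 3 were Insig1, Npc2 and Scd1, and higher in Npc1 and Abca1. Over all genes tested such a lower separation held for 7.49% and a higher one for 6.71%. This count was also made after the data had been seen. Control replicate 1 itself lay low in most of these genes, so leaving it out makes a lower separation more likely in them. The share over all genes is therefore not an even measure for them. Against all 6 controls, only Sc5d and Npc2 of the list had all cKO pools lower.

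Control replicate 5 differed in another set. It was more than 0.5 on the log2 scale under the other 5 controls in 12 genes, Mvk, Lss, Tm7sf2, Dhcr7, Srebf1, Srebf2, Scap, Scarb1, Npc1, Lipe, Scd2 and Fasn. These had a median GC content of 54.2%, against 46.7% in the other 24 genes. Across the 36 genes GC content and the deviation of this library had a correlation of -0.48, which is a description over genes of 1 library. With a GC trend taken out of each library, an alternative chosen after the data had been seen, the count stood at 5 lower and 1 higher, with Hsd17b7 lost (edgeR adjusted p = 0.0662) and Scd1 gained (edgeR adjusted p = 0.0403), while the share of all genes called rose to 10.6% (6.56% lower, 4.01% higher). Without both control replicates 1 and 5, also chosen after the data had been seen, 15 of the 36 were called lower and 2 higher, and of all genes 8.34% and 8.33%.

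**Figure D5:**
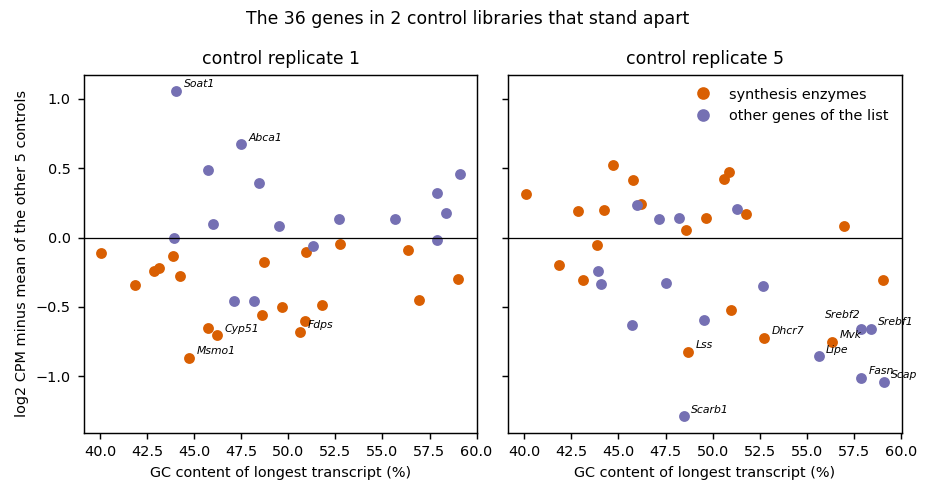
Deviation of each of the 36 genes in control replicates 1 (left) and 5 (right) from the mean log2 CPM of the other 5 controls, against the GC content of its longest transcript. In replicate 1 the 20 synthesis enzymes all lie under 0 across the range of GC content, and in replicate 5 the lowest points, Scarb1 aside, lie mostly at higher GC content.

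With just the 8 libraries of low Xist, the synthesis enzymes had a median log2 fold change of -0.23. Acat2, Pmvk, Fdps, Sqle, Cyp51, Msmo1, Nsdhl and Scd1 were called lower there and Abcg1 higher. Fdft1, Ebp, Insig1, Npc2, Npc1 and Abca1, which passed without control replicate 1, did not pass there. Their log2 fold changes were -0.19, -0.38, -0.27, -0.13, 0.22 and 0.25 (edgeR adjusted p = 0.128, 0.0877, 0.0507, 0.285, 0.238 and 0.0802). Of the genes called in all 12 libraries Hsd17b7 and Sc5d no longer passed (edgeR adjusted p = 0.117 and 0.0636), with a log2 fold change of -0.21 in Hsd17b7 and of -0.34 in Sc5d, larger than the -0.29 of all 12 libraries. In these libraries the other medians were 0.11 for SREBP regulators, 0.12 for uptake and trafficking, -0.09 for storage and hydrolysis, 0.39 for efflux and 0.12 for fatty acid enzymes.

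A further 58 genes of sterol and lipid handling were listed by function. Of 56 that were tested 6 were lower (10.7%, against 4.85% of all genes) and 1 was higher (1.79%, against 3.28%), and their median log2 fold change was -0.04. None of the 8 genes of SREBP cleavage and sterol-dependent degradation was called, with values of -0.10 to 0.13. Among sterol receptors and their target, Nr1h5, which encodes the nuclear receptor FXR-beta, was higher in cKO testes. It had 0.122, 0.239 and 0.330 CPM as lowest, median and highest control values, on 2 to 13 counts, and 2.53, 3.94 and 6.79 CPM in cKO pools, on 32 to 229 counts. The groups were far apart, with a log2 fold change of 4.08 (SE 0.32, edgeR adjusted p = 7.79e-06). The LXR genes were not called, Nr1h2 at -0.04 (edgeR adjusted p = 0.708) and the scarce Nr1h3 at 0.69 (edgeR adjusted p = 0.146).

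The 6 lower genes were spread over several functions. Cd36, a scavenger receptor for lipids, had 8.57, 11.1 and 17.3 CPM in control pools, against 5.02, 6.12 and 7.46 CPM in the cKO pools, a log2 fold change of -0.95 (SE 0.17, edgeR adjusted p = 0.00300) with no overlap. The cKO pools of Cyp7b1, the oxysterol hydroxylase, had 3.12, 4.17 and 4.54 CPM and its controls 5.04, 5.68 and 9.87 CPM, a change of -0.62 (SE 0.17, edgeR adjusted p = 0.0357). Hilpda, a lipid droplet protein, went from 9.81, 10.6 and 12.7 CPM in controls to 6.41, 8.50 and 8.86 CPM in cKO pools and changed by -0.39 (SE 0.10, edgeR adjusted p = 0.0308). In both genes all cKO pools lay under all controls. Pgrmc1, a haem protein that binds cytochromes P450 such as the product of Cyp51, had 184, 198 and 217 CPM in controls and 155, 163 and 180.3 CPM in cKO pools, with a change of -0.27 (SE 0.06, edgeR adjusted p = 0.0125). Stard5, a sterol carrier, had 21.8, 23.5 and 24.7 CPM in controls and 18.5, 19.8 and 20.2 CPM in cKO pools, with a change of -0.26 (SE 0.06, edgeR adjusted p = 0.0213). These 2 genes were also without overlap. Fads2, a fatty acid desaturase, had 123, 151 and 164 CPM in controls and 102, 114 and 127 CPM in cKO pools, which overlapped, and changed by -0.38 (SE 0.08, edgeR adjusted p = 0.0112). When the 12 libraries were left out in turn, Cyp7b1 was lost 8 times, Hilpda 7 times and Stard5 1 time, while Cd36, Fads2 and Pgrmc1 always passed. With the replicate block Pgrmc1, Stard5, Hilpda and Cyp7b1 were lost (edgeR adjusted p = 0.0514, 0.0741, 0.0678 and 0.0918), with log2 fold changes of -0.27, -0.26, -0.40 and -0.59. In the 8 libraries with low Xist the same 4 were lost (edgeR adjusted p = 0.0563, 0.0941, 0.0640 and 0.0774), with log2 fold changes of -0.27, -0.24, -0.45 and -0.66, and so was Fads2, at -0.32 (edgeR adjusted p = 0.0863). Cyp7b1 was also lost with limma-voom (adjusted p = 0.0532).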

How the data were processed

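RNA-seq of 12 pools of 3 mouse testes at E14.5 was analysed. The authors trimmed read pairs with Trim Galore 0.6.7, aligned them to mm10 with STAR 2.5, counted them by strand on RefSeq Curated gene models with featureCounts (Subread 1.5.0-p1) and deposited raw counts for 24470 genes. Counts were scaled by TMM and compared with edgeR 4.0.16 in R 4.3.3 (filterByExpr defaults, count 10 and total 15, which left 15572 genes, glmQLFTest without covariate, Benjamini-Hochberg over all genes, threshold 0.05). The SE is the log2 fold change over the square root of F, and intervals are 95%. Log2 CPM used a prior count of 2. Exon lengths and GC content came from GENCODE M21, on the build of the counts. Genes were listed by function, but the lists were chosen with earlier results of these data known. The labels do not say that pools of a genotype came from separate litters, so p-values measure the spread between pools. Total counts were 7044531 to 59404778. Counting error alone gives a median SD of log2 CPM of 0.0411 in control and 0.0358 in cKO pools over the 36 genes, against observed medians of 0.27 and 0.12. DESeq2 1.42.0, the tool of the authors, limma-voom (limma 3.58.1), other scalings and filters, a replicate block and fits without libraries were alternatives.

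Full values are given for called genes, for the gene of highest level per length in each role, for the 5 uncalled genes with the largest change, and for called genes among the 58 others. On data simulated from these 15572 genes with 200 changed, edgeR recovered 78 of 100 changes of 1 and 49 of 100 of 0.5 on the log2 scale, with 10 false among 137 calls. The simulation gave both groups the same spread and held no library that stood apart, unlike these data. Its rates therefore need not hold for the genes of the list.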

Additional observations from a re-analysis of the deposited data

Results flagged for a closer look

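Within groups of 6 pools, the highest or lowest value was tested against the rest by Dixon's criterion at 95% for the 36 genes and Nr2f2. Of 74 groups tested 7 had such a value, and chance gives about 1 in 20. Control replicate 1 held 5 of the 7. It was low for Acat2 (49.0 CPM, the other controls from 64.5 to 71.8), Sqle (98.8 CPM, the others from 140.4 to 152) and Insig1 (93.7 CPM, the others from 121 to 133), and high for Soat1 (279 CPM, the others from 125 to 147) and Abca1 (244 CPM, the others from 137 to 163). Control replicate 5 was high for Npc2 (152 CPM, the others from 129 to 136). In cKO pools, replicate 5 was low for Nsdhl (43.7 CPM, the others from 49.8 to 52.6). Control replicate 1 is the control library with Xist at 891 and Foxl2 at 47.2 CPM.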

How the results depend on the processing

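The negative median of the synthesis enzymes was kept in every alternative, and the calls of single genes were not. All genes called numbered 1266, but 1919 with DESeq2, 1608 with the GC offset, 2625 without both control replicates 1 and 5, and 816 to 3106 when single libraries were left out. In either direction they numbered 1258 with RLE factors, 1251 with upper-quartile factors and 1115 without a low-count filter. Genes of the list called lower numbered 5, but 1 with limma-voom, 3 with upper-quartile factors, 4 with RLE factors (Nsdhl lost, adjusted p = 0.0528), 7 with DESeq2, 3 without a low-count filter, 8 in the 8 libraries with low Xist, 15 without both control replicates 1 and 5, and 0 to 14 when single libraries were left out. Those called higher numbered 1, but 2 without both controls and 0 to 3 when single libraries were left out. Replicate numbers of the labels did not pair the pools (correlations of deviations from -0.33 to 0.24, and no control library matched its own number best), and with a replicate block 0 genes were called lower and 1 higher (3.46% and 2.52% of all genes), with 13 of the 36 (36.1%, against 25.6% of all genes) at an unadjusted p under 0.05 and Abcg1 the gene called. The cause of these moves was not tested.

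Changes of sign were seen in genes near 0, none of which passed the test. Ggps1 was 0.000124 with DESeq2, 0.0220 with limma-voom, 0.000328 without a filter, 0.00265 with the replicate block, 0.0272 with the GC offset, 0.0533 without both controls and -0.0433 to 0.0614 without single libraries. Srebf2 was 0.0136 with limma-voom, 0.00933 with the replicate block, 0.115 in the 8 libraries and -0.0903 to 0.0543 without single libraries. In the 8 libraries Lbr was -0.0222, Insig2 -0.0364 and Stard4 0.0210. With the GC offset Dhcr7 was -0.00951 and Scd2 -0.0164. Without both controls Idi1 was -0.0828, Tm7sf2 -0.0720, Dhcr7 -0.116, Scarb1 -0.0262, Soat1 0.155 and Scd2 -0.0775. Without single libraries the ranges were Idi1 -0.0383 to 0.0923, Tm7sf2 -0.0268 to 0.133, Lbr -0.0139 to 0.0725, Dhcr7 -0.0737 to 0.0898, Insig2 -0.0270 to 0.0543, Scarb1 -0.0488 to 0.240, Stard4 -0.0476 to 0.0272, Soat1 -0.145 to 0.173, Scd2 -0.0691 to 0.0518 and Fasn -0.0102 to 0.171. The lowest count of the list in any library was 91, at which counting error alone gives an SD of 0.151 on the log2 scale.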
